A study of Mus musculus with 12 samples.

Results

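The 35 genes described here are integrin chains and other cell adhesion molecules. They were chosen by name, with earlier results of these data known, from the 22339 gene symbols that the 3 expression tables share. They comprise 12 integrin alpha chains, 5 integrin beta chains, 10 adhesion molecules of the immunoglobulin family, 3 tetraspanins and 5 other surface molecules. All 35 were listed in all 3 tables, and 29 of them reached the level needed for a test in at least 1 table.

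The study asked what the histone methyltransferase PRDM16 does in mouse leukaemia cells, by comparing cells given PRDM16 with cells given a changed form, PRDM16mut. All cells came from the bone marrow of C57BL/6 mice and grew in medium that held 15% serum plus 10 ng/ml of each of the cytokines IL3, IL6 and SCF. Lineage-negative (Lin-) marrow cells were cotransduced either with MLL-AF9 and PRDM16, MLL-AF9 and PRDM16mut, E2A-HLF and PRDM16, or E2A-HLF and PRDM16mut, and were collected after 10 days of selection in G418 and puromycin. Marrow cells that already carried MLL-AF9, called stable cells, received PRDM16 or PRDM16mut and were collected after 10 days in puromycin. MLL-AF9 and E2A-HLF are fusion oncoproteins of acute leukaemia. Each of the 6 groups held 2 RNA-seq libraries. Every group therefore carried a fusion oncogene and a form of PRDM16, and no group without introduced PRDM16 was analysed here. The labels do not say what PRDM16mut changes, whether the 2 libraries of a group came from separate cultures, or whether cells were cloned. A p-value here sets a difference against the spread of such library pairs, part or all of which can be technical.

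Integrins are receptors made of an alpha and a beta chain that join cells to extracellular matrix or to other cells. In blood cells the beta 2 chain forms the leukocyte integrins with alpha L (LFA-1), alpha M (Mac-1) and alpha X, which bind ICAM molecules on partner cells. The beta 1 and beta 7 chains share alpha 4, which binds VCAM-1, and alpha E with beta 7 binds E-cadherin. Immature myeloid cells use alpha 4, alpha 5 and alpha 6 integrins, CD44 and CXCR4 to lodge in the marrow, and beta 2 integrins come up as granulocytes and monocytes mature.

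The libraries were sequenced to similar relative depths within groups (library 2 over library 1 from 0.92 to 1.17), except for MLL-AF9 with PRDM16, where library 2 was 1.63 times as deep. Both libraries of that group also listed the ribosomal RNA precursor Rn45s at 0, while the other 10 listed 941 to 1554 FPKM (a fragment count divided by transcript length and by library size), so that this feature and the group cannot be told apart. Prdm16 itself was listed in the MLL-AF9 cotransduction at 83.9 and 119 FPKM with PRDM16, against 29.5 and 30.1 FPKM with PRDM16mut. In the E2A-HLF cotransduction it was 49.2 and 56.6 against 56.6 and 43.5 FPKM, and in stable cells 77.9 and 79.95 against 89.1 and 94.6 FPKM. The blood cell marker Ptprc lay between 43.5 and 61.3 FPKM in all 12 libraries. Other markers of blood cells ranged from 219 to 612 FPKM (Laptm5), 77.2 to 217 FPKM (Cd53), 341 to 573 FPKM (Coro1a) and 25.8 to 53.3 FPKM (Vav1). Of the 6 endothelial markers 3 stayed under 1 FPKM in all 12 (Emcn at 0, Cdh5 and Kdr), while Egfl7 ranged from 7.32 to 118 FPKM, Tie1 up to 4.40 FPKM and Tek up to 1.53 FPKM. Of the 7 stromal markers 6 stayed under 1 FPKM, and Acta2 reached 3.29 FPKM.

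The adhesion genes differed between PRDM16 and PRDM16mut in both cotransductions and by little in the stable cells. With MLL-AF9, 29 members were tested, of which 15 were higher and 9 lower with PRDM16. With E2A-HLF, 12 of 27 were higher and 9 lower. In the stable cells 4 of 26 were higher and 1 was lower. Members that reached the level for a test through the libraries of only 1 form had to differ. They were 4 with MLL-AF9 (Itgae and Itgax, both called higher, Itgb2l and Vcam1, both called lower), 2 with E2A-HLF (Itgax called higher, Alcam called lower) and 0 in stable cells. A gene was called when limma on log2(FPKM + 1) gave an adjusted p, by Benjamini-Hochberg over every gene tested in that table, under 0.05. Over all tested genes the called shares were 35.6% higher and 34% lower with MLL-AF9, 22.7% and 21.1% with E2A-HLF, and 4.2% and 2.16% in stable cells. Members that changed by at least 1 on the log2 scale numbered 13, 7 and 0 in the 3 comparisons, beside 15.5%, 5.75% and 0.321% of all genes. The 2 libraries of one form lay wholly above those of the other for 29 of 29, 23 of 27 and 18 of 26 tested members, while the same held for 86.3%, 73.7% and 60.6% of all genes. The median size of change, whatever its sign, was 0.89 among tested members and 0.37 among all genes with MLL-AF9, 0.40 and 0.16 with E2A-HLF, and 0.08 and 0.07 in the stable cells. The signed median was 0.36 for members and 0.01 for all genes with MLL-AF9, and 0.04 and 0.01 with E2A-HLF. Earlier results of these data were known when the members were chosen, so gaps between members and all genes are descriptive only. Leaving out 1 of the 4 libraries gave 12 to 17 higher and 9 to 10 lower members with MLL-AF9, and 11 higher and 7 to 9 lower with E2A-HLF. In the stable cells it gave 0 higher and 0 lower. All these libraries are of bulk cells, so fewer cells of a type and less RNA per cell cannot be told apart.

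**Figure D1:**
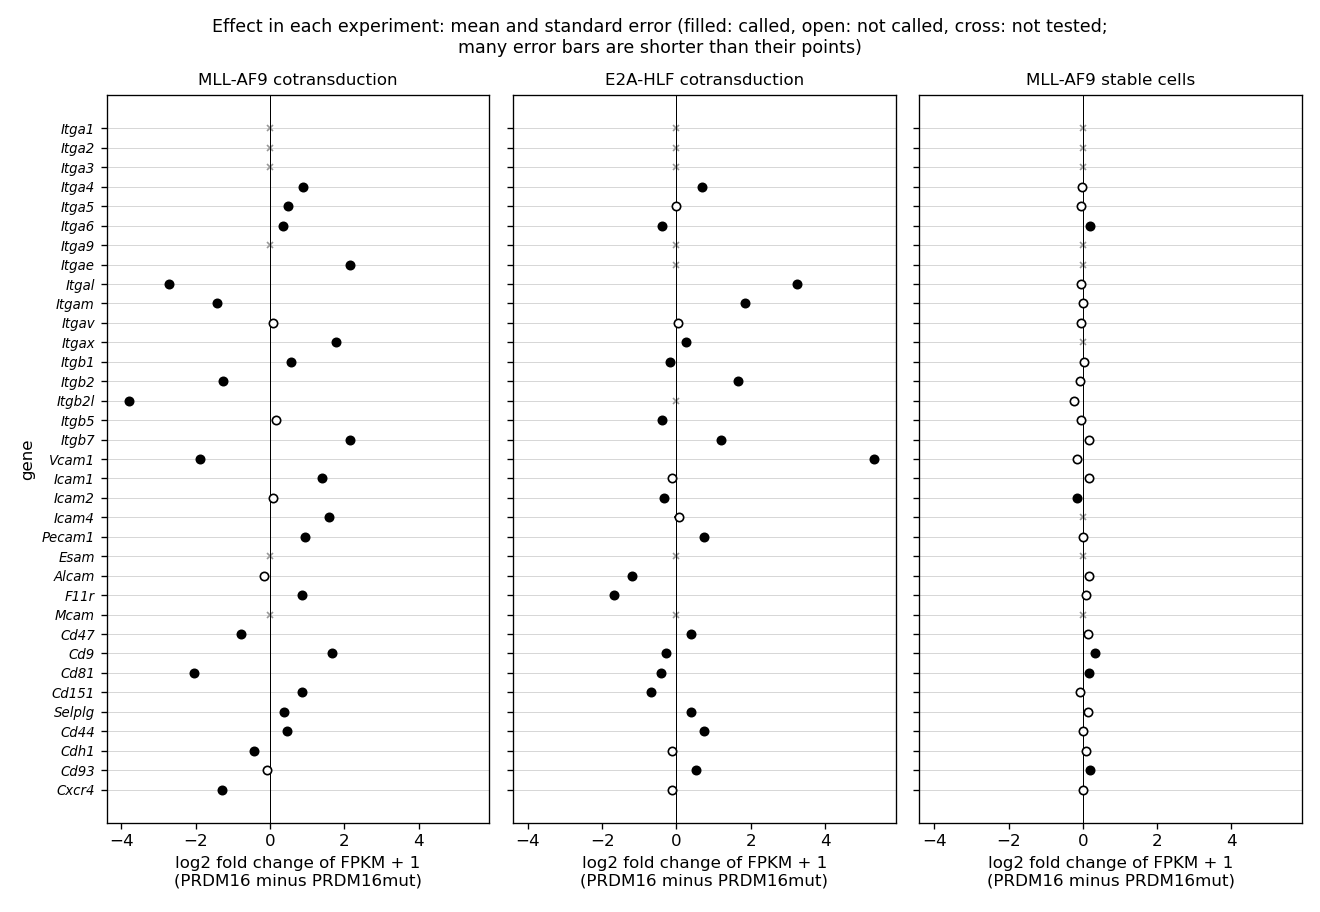
Log2 fold change (PRDM16 minus PRDM16mut, FPKM + 1) of each member on the horizontal axis in the 3 experiments, with the standard error as a bar. Filled points were called, open points were not, and crosses were not tested. Effects span -3.80 to 2.16 with MLL-AF9, -1.69 to 5.33 with E2A-HLF and -0.23 to 0.33 in the stable cells.

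Of the 12 alpha chains, 8 were tested with MLL-AF9, 7 with E2A-HLF and 6 in the stable cells. Among those tested, 5 were higher and 2 lower with PRDM16 in the MLL-AF9 cotransduction, 4 higher and 1 lower alongside E2A-HLF, and 1 higher in the stable cells. These counts, and those of the other kinds of members below, stand beside the called shares over all genes given above. Itgal, the alpha chain of LFA-1, had the largest change among the tested alpha chains on the log2(FPKM + 1) scale in both cotransductions. It stood at 1.47 and 1.72 FPKM with PRDM16 against 15.8 and 16.4 FPKM with PRDM16mut in the MLL-AF9 cotransduction. E2A-HLF cells showed the reverse order, 43.3 and 42.9 FPKM with PRDM16 against 3.603 and 3.65 FPKM with PRDM16mut. The groups did not overlap in either experiment, and the log2 fold changes were -2.72 (SE 0.073, adjusted p = 7.25e-06) with MLL-AF9 and 3.25 (SE 0.045, adjusted p = 5.39e-07) with E2A-HLF. Stable cells had 29.9 and 29.9 FPKM with PRDM16 against 30.6 and 31.1 FPKM with PRDM16mut, a difference that was not called (adjusted p = 0.373).

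Itgam, the alpha chain of Mac-1 and the CD11b antigen of granulocytes and monocytes, went the same way as Itgal. Its level was 42.3 and 45.3 FPKM with PRDM16 against 119 and 119 FPKM with PRDM16mut in MLL-AF9 cells, a log2 fold change of -1.42 (SE 0.056, adjusted p = 2.32e-05). With E2A-HLF it was 12.3 and 12.7 FPKM with PRDM16 against 2.81 and 2.701 FPKM with PRDM16mut, a log2 fold change of 1.84 (SE 0.055, adjusted p = 5.61e-06). All 4 PRDM16 libraries thus lay apart from their mutant counterparts, below them with MLL-AF9 and above them with E2A-HLF. In stable cells Itgam was 69.9 and 67.3 FPKM with PRDM16 against 67.5 and 68.9 FPKM with PRDM16mut, and these libraries overlapped.

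Itgax, the CD11c chain of dendritic cells and some macrophages, did not follow Itgam with MLL-AF9. It stood at 3.19 and 3.22 FPKM with PRDM16 against 0.198 and 0.252 FPKM with PRDM16mut, higher by 1.78 (SE 0.062, adjusted p = 1.64e-05) on the log2 scale, and it was tested there only because of the PRDM16 libraries. The E2A-HLF values were 1.14 and 1.14 FPKM with PRDM16 against 0.816 and 0.791 FPKM with PRDM16mut, a change of 0.25 (SE 0.066, adjusted p = 0.0276) that was no longer called when any 1 of the 4 libraries was left out (adjusted p from 0.0813 to 0.0973). All stable libraries had under 0.06 FPKM of Itgax.

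Itgam and Itgax are near neighbours on chromosome 7, with 1 coding gene between them in the GENCODE annotation, and with MLL-AF9 they changed in opposite directions. Their promoters are shown for this reason, together with those of Itgb2l and Itgb7, the beta chain genes with the largest fall and rise with PRDM16 in that experiment. Each runs from 250 bases before to 50 bases after the gene start, 5′ to 3′ on the gene's strand, taken from RefSeq on build GRCm38.p6. Capitals mark GAGGAA or its reverse complement TTCCTC, the core letters bound by PU.1, a transcription factor of myeloid cells.
Itgam promoter, chr7:128062390-128062689, plus strand: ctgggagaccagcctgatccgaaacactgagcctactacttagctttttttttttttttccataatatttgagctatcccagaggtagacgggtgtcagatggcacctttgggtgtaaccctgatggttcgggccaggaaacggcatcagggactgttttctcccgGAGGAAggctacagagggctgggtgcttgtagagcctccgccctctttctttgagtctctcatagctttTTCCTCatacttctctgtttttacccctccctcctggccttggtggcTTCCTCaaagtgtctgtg
Itgax promoter, chr7:128129300-128129599, plus strand: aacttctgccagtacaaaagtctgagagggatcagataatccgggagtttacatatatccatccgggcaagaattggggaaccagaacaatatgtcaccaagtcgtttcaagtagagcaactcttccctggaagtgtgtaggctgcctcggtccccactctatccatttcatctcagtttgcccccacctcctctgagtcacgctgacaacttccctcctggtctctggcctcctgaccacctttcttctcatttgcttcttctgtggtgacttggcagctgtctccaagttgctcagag
Itgb2l promoter, chr16:96443565-96443864, minus strand: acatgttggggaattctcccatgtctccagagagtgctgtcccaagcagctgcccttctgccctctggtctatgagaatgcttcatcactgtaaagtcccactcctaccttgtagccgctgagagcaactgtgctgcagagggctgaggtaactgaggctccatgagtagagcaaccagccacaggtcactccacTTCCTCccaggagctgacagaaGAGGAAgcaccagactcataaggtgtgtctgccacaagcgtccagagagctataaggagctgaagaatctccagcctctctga
Itgb7 promoter, chr15:102231886-102232185, minus strand: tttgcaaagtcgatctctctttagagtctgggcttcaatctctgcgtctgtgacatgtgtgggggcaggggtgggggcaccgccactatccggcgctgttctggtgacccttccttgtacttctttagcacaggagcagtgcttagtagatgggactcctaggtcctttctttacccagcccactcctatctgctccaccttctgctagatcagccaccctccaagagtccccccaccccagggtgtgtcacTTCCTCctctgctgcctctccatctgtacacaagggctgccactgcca
The 6 letters occurred 3 times in the Itgam window, 2 times in that of Itgb2l, 1 time in that of Itgb7 and not at all in that of Itgax. They were present in 11 of the 27 member promoters in the RefSeq table and in 28.3% of all 32851 promoters of the same length in it. A match of letters is a description and not a measured binding site.

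The alpha 4 chain gene Itga4, which pairs with beta 1 or beta 7 and binds VCAM-1 and fibronectin, was higher with PRDM16 in both cotransductions. It stood at 34.2 and 33.4 FPKM with PRDM16 against 17.5 and 18.2 FPKM with PRDM16mut in MLL-AF9 cells, and at 30.03 and 36.2 FPKM with PRDM16 against 21.3 and 19.00 FPKM with PRDM16mut in E2A-HLF cells. The log2 fold changes were 0.89 (SE 0.055, adjusted p = 9.6e-05) and 0.69 (SE 0.098, adjusted p = 0.00261). Neither experiment had overlapping groups, while the stable cells did (17.9 and 17.2 against 17.5 and 17.9 FPKM). Reads of Cerkl, on the opposite strand and overlapping Itga4, cannot be separated without strand information, and Cerkl was listed at 4.34 and 3.34 against 0.737 and 0.949 FPKM with MLL-AF9.

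Itga6, the laminin receptor chain, was called in all 3 comparisons, but not with 1 sign. It was higher with PRDM16 in the MLL-AF9 cotransduction at 10.7 and 11.1 FPKM with PRDM16 against 8.07 and 8.42 FPKM with PRDM16mut, a log2 fold change of 0.36 (SE 0.06, adjusted p = 0.00336), and that call was lost without mutant library 1 (adjusted p = 0.0617). It was lower with E2A-HLF at 18.8 and 20.3 FPKM with PRDM16 against 26.4 and 25.4 FPKM with PRDM16mut, a log2 fold change of -0.39 (SE 0.054, adjusted p = 0.00221). In the stable cells the 4 values were 21.3 and 20.4 FPKM with PRDM16 against 18.02 and 18.4 FPKM with PRDM16mut. The rise was 0.18 (SE 0.035, adjusted p = 0.0467), a call lost when any 1 library was left out. Itga5, the fibronectin receptor chain, was higher with MLL-AF9 at 14.7 and 18.3 against 11.3 and 11.6 FPKM, a log2 fold change of 0.48 whose call was lost when either mutant library was left out (adjusted p = 0.0684 and 0.0586). Itgav, a receptor chain for vitronectin and other matrix proteins, stayed between 5.04 and 7.02 FPKM in all 12 libraries and was called in no comparison.

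Itgae, the CD103 chain that pairs with beta 7 on mucosal lymphocytes and some dendritic cells, was tested with MLL-AF9 alone. Its values there were 6.57 and 6.99 FPKM with PRDM16 against 0.699 and 0.775 FPKM with PRDM16mut, and the log2 fold change was 2.16 (SE 0.066, adjusted p = 1.06e-05). Only the PRDM16 libraries took it past the level filter. The other 8 libraries all had under 0.63 FPKM. Haspin, listed as Gsg2, overlaps Itgae on the opposite strand. In the MLL-AF9 libraries Gsg2 was at 6.31 and 7.58 FPKM with PRDM16 and 10.6 and 10.0 FPKM with PRDM16mut, the opposite order to Itgae. Itga1, Itga2, Itga3 and Itga9, which bind collagens, laminins and other matrix proteins, stayed under 0.5 FPKM in all 12 libraries and were not tested.

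**Figure D2:**
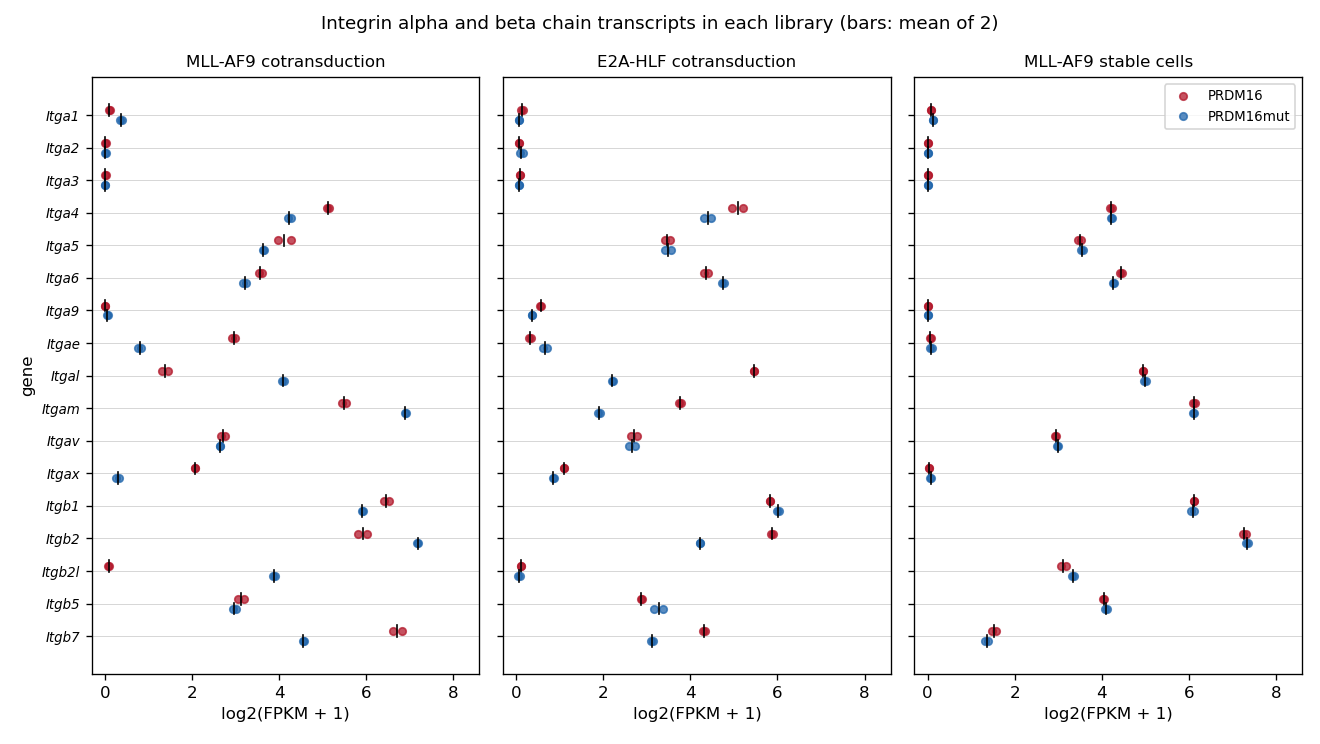
Log2(FPKM + 1) of the 17 integrin chain genes on the horizontal axis, 1 point per library and a bar at the mean of the 2 libraries of a group, for the 3 experiments. Itgal, Itgam and Itgb2 lie lower with PRDM16 than with PRDM16mut in the left panel and higher in the middle panel, and both forms nearly coincide in the right panel.

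All 5 beta chains were tested with MLL-AF9 and in the stable cells, and 4 with E2A-HLF. In each cotransduction 2 were higher and 2 lower with PRDM16. None was called by limma in the stable cells, where 2 of the 5 had an unadjusted p under 0.05. Itgb2, the chain shared by all leukocyte integrins, moved with Itgal and Itgam. It stood at 55.4 and 63.9 FPKM with PRDM16 against 146 and 144 FPKM with PRDM16mut in MLL-AF9 cells, a log2 fold change of -1.27 (SE 0.078, adjusted p = 9.49e-05). The E2A-HLF libraries had 58.5 and 56.6 FPKM with PRDM16 against 17.5 and 17.8 FPKM with PRDM16mut, a log2 fold change of 1.65 (SE 0.042, adjusted p = 3.44e-06). PRDM16 libraries were the lower pair in the former and the higher pair in the latter, without overlap.

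Itgb2l encodes a beta 2-like chain of mouse granulocyte precursors, and its level fell further than that of any other tested member in the MLL-AF9 cotransduction. It was listed at 0.0568 and 0.0699 FPKM with PRDM16 against 13.6 and 13.95 FPKM with PRDM16mut, a log2 fold change of -3.80 (SE 0.059, adjusted p = 1.82e-06). Only the mutant libraries took it past the level filter, and the added 1 FPKM understates the ratio for a group this close to 0. All 4 E2A-HLF libraries had under 0.08 FPKM and were not tested. Stable cells had 8.001 and 7.399 FPKM with PRDM16 against 9.003 and 9.37 FPKM with PRDM16mut, which did not overlap but missed the threshold (adjusted p = 0.0588).

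Itgb7, the partner of alpha 4 and alpha E on gut-homing lymphocytes and mast cells, was higher with PRDM16 in both cotransductions. With MLL-AF9 it reached 96.5 and 112 FPKM with PRDM16 against 22.4 and 22.7 FPKM with PRDM16mut, a log2 fold change of 2.16 (SE 0.082, adjusted p = 2.1e-05). With E2A-HLF it was 19.1 and 18.4 FPKM with PRDM16 against 7.88 and 7.49 FPKM with PRDM16mut, a log2 fold change of 1.19 (SE 0.052, adjusted p = 2.32e-05). The stable cells had the lowest levels, 1.97 and 1.803 FPKM with PRDM16 against 1.62 and 1.51 FPKM with PRDM16mut, not called. The effect was larger with MLL-AF9 than with E2A-HLF by 0.97 (SE 0.095, adjusted p = 6.22e-06) on the log2 scale.

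Itgb1, the most widely shared beta chain, was at 90.7 and 83.9 FPKM with PRDM16 against 59.4 and 58.8 FPKM with PRDM16mut in MLL-AF9 cells, higher by 0.55 (SE 0.059, adjusted p = 0.000651). With E2A-HLF the order turned to 56.1 and 56.2 against 62.9 and 64.7 FPKM, lower by a log2 fold change of -0.18 (SE 0.041, adjusted p = 0.0151). That second call was lost in 3 of the 4 fits that left out a library (adjusted p from 0.057 to 0.0754). Itgb5, a partner of alpha V, was called lower with E2A-HLF, at 6.33 and 6.35 against 9.398 and 7.94 FPKM and a log2 fold change of -0.39. With MLL-AF9 it was not called (7.28 and 8.18 against 6.999 and 6.71 FPKM), but was called higher with quantile normalization (adjusted p = 0.0493) or without PRDM16 library 1 (adjusted p = 0.0186).

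The summed neutrophil list and the summed mast cell and basophil list went in the direction of Itgal, Itgam and Itgb2 in both cotransductions. The monocyte sum was higher with PRDM16 in both. The dendritic cell sum was higher with MLL-AF9 and lower with E2A-HLF. The summed level of the neutrophil marker list was 1381 to 1448 FPKM with PRDM16 and 54190 to 55283 FPKM with PRDM16mut in the MLL-AF9 cotransduction, where 13 of 13 tested markers were lower. With E2A-HLF it was 2019 to 2119 against 677 to 691 FPKM, with 9 of 10 higher. In stable cells it was 16302 to 16424 against 15612 to 16211 FPKM, with 1 higher and 2 lower of 13. The monocyte list summed to 5201 to 5263 against 2204 to 2218 FPKM with MLL-AF9 (6 higher and 3 lower of 10) and 431 to 459 against 114 to 119 FPKM with E2A-HLF (5 higher and 3 lower of 8). The dendritic cell list was 1248 to 1362 against 44.7 to 46.3 FPKM with MLL-AF9 (4 of 4 higher), and 12.6 to 13.3 against 67.0 to 70.8 FPKM with E2A-HLF (5 of 5 lower). With MLL-AF9 the sum was mostly Cd74 (mean 937 against 29.5 FPKM), H2-Aa (208 against 8.49 FPKM) and H2-Ab1 (153 against 7.19 FPKM). The fourth tested marker was Ccr7 (7.25 against 0.140 FPKM), and 6 of the 10 markers stayed under 1 FPKM there, Flt3 and Clec9a among them. Mast cell and basophil markers summed to 212 to 213 against 2181 to 2199 FPKM with MLL-AF9 (1 higher and 8 lower of 9), and to 195 to 200.1 against 152 to 158 FPKM with E2A-HLF (5 higher and 1 lower of 7). The stem and progenitor list summed to 499 to 508 against 251 to 253 FPKM with MLL-AF9 (2 higher and 2 lower of 4) and 1348 to 1426 against 2632 to 2811 FPKM with E2A-HLF (0 higher and 5 lower of 7). The counts of these and the later marker lists stand beside called shares over all genes of 35.6% higher and 34% lower with MLL-AF9. With E2A-HLF the shares were 22.7% and 21.1%, and in stable cells 4.2% and 2.16%. Single genes made up much of several sums. Lyz2 of the monocyte list reached 4046 FPKM with MLL-AF9 and PRDM16. S100a8 of the neutrophil list reached 29620 FPKM with MLL-AF9 and PRDM16mut. Ly6a of the stem and progenitor list reached 2674 FPKM with E2A-HLF and PRDM16mut. With MLL-AF9 the stem and progenitor list had a median log2 fold change of -0.23, although its sum was higher with PRDM16. The part of these cell types in the differences of Itgal, Itgam, Itgb2, Itgb2l, Itgax, Itgae and Itgb7 was not tested.

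Because FPKM is scaled to transcript length, the alpha chains that share a beta chain can be set side by side within a library. Among the 3 member chains that pair with beta 2, Itgam made up 90.1% of the summed alpha FPKM in both MLL-AF9 libraries with PRDM16 (90.09% and 90.16%) and 88.1% and 87.7% in those with PRDM16mut. The share of Itgal was 3.12% and 3.42% with PRDM16 against 11.8% and 12.1% with the mutant. That of Itgax was 6.79% and 6.42% against 0.147% and 0.186%. The summed level of the 3 was 46.9 and 50.2 FPKM against 134.6 and 135.5 FPKM, and no test was made of these sums or shares. Itgad, a further partner of beta 2 that is no member, is not in the shares and stood between 0.0172 and 0.157 FPKM in all 12 libraries.

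The E2A-HLF cells had another make-up of the same 3 chains. Itgal supplied 76.4% and 75.6% with PRDM16 and 49.8% and 51.1% with PRDM16mut. The remainder was mainly Itgam, at 21.6% and 22.4% against 38.9% and 37.8%, while Itgax held 2.02% and 2.01% against 11.3% and 11.1%. The sum was 56.7 FPKM in each PRDM16 library and 7.23 and 7.14 FPKM in the mutant ones. In stable cells the split was near 30% Itgal to 69% Itgam in all 4 libraries (Itgal from 29.95% to 31.2%).

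Among the member chains that pair with beta 1, Itga4 had the largest share with PRDM16 in both cotransductions. It was 52.3% and 48.9% against 41.1% and 41.6% with MLL-AF9, and 46.0% and 49.9% against 33.0% and 31.9% with E2A-HLF. In the mutant E2A-HLF libraries Itga6 was the main chain, at 40.9% and 42.7%, compared with 28.8% and 27.96% with PRDM16. Stable cells were led by Itga6 in all 4 libraries (33.8% to 38.1%), followed by Itga4 (31.2% to 33.2%). Alpha 4 also pairs with beta 7, and its transcripts cannot be divided between the partners. Of the 2 partners of beta 7, Itgae took 16.1% and 17.3% with MLL-AF9 and PRDM16, 3.85% and 4.08% with MLL-AF9 and PRDM16mut, and at most 2.83% in the other 8 libraries.

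**Figure D3:**
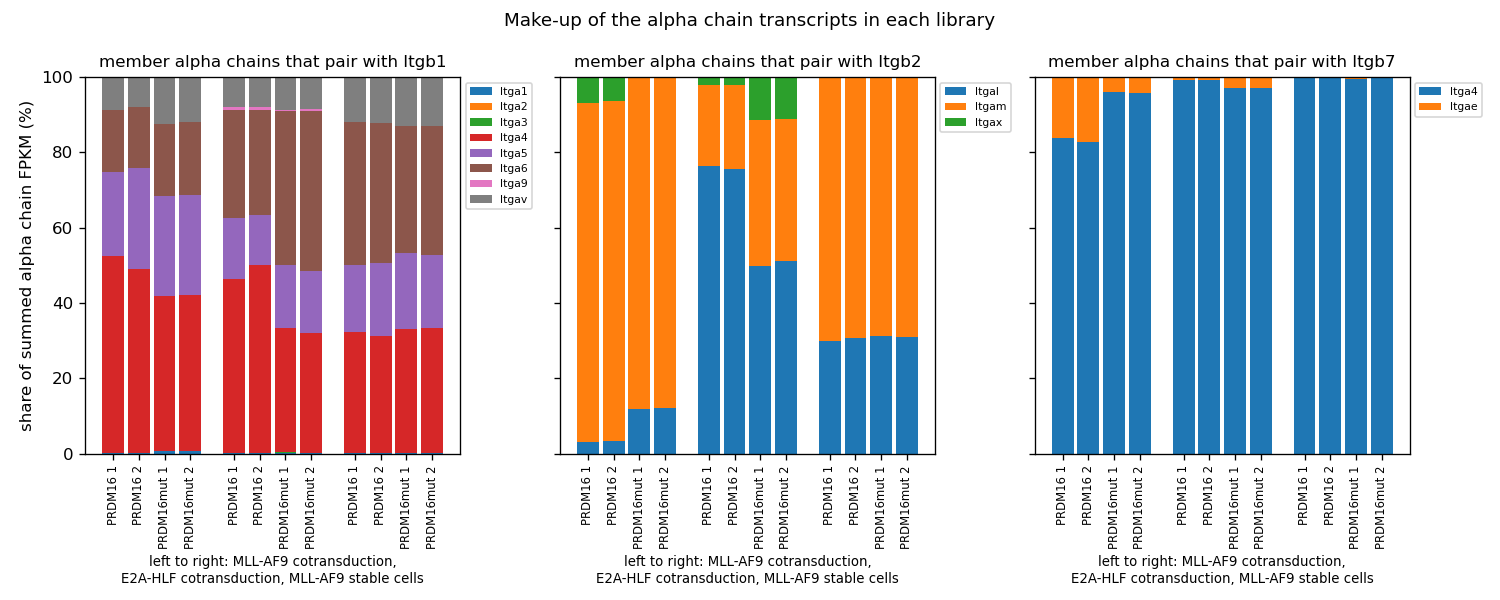
Share (%) of each alpha chain in the summed FPKM of the member alpha chains that pair with Itgb1, Itgb2 or Itgb7, 1 stacked bar per library, ordered by experiment and then by form of PRDM16. Itgam fills about 90.1% of the Itgb2 panel with MLL-AF9 and PRDM16, while Itgal fills 76.4% and 75.6% with E2A-HLF and PRDM16.

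The immunoglobulin family members include counter-receptors that integrins bind on another cell, such as VCAM-1 and the ICAM molecules. Of the 10, 8 were tested in each cotransduction and 7 in the stable cells. Among those tested, 4 were higher and 2 lower with MLL-AF9, 3 higher and 3 lower with E2A-HLF, and 1 lower in the stable cells. Vcam1, the ligand of alpha 4 integrins, had the widest relative range of the tested members. It was listed at 0.125 and 0.0769 FPKM with PRDM16 against 2.94 and 3.15 FPKM with PRDM16mut in MLL-AF9 cells, where the mutant libraries alone took it past the filter, a log2 fold change of -1.88 (SE 0.066, adjusted p = 1.69e-05). The E2A-HLF libraries listed 188 and 197 FPKM with PRDM16 against 3.77 and 3.83 FPKM with PRDM16mut, a log2 fold change of 5.33 (SE 0.045, adjusted p = 1.8e-07). Mean FPKM was thus 50.6-fold higher with PRDM16 in the E2A-HLF cells, where Vcam1 ranked first among the 35 members, and 30.2-fold higher with PRDM16mut in the MLL-AF9 cells. Stable cells had 6.097 and 6.39 FPKM with PRDM16 against 7.100 and 6.91 FPKM with PRDM16mut, which did not overlap but was not called (adjusted p = 0.106).

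Icam1, the main ligand of LFA-1 and Mac-1, and Icam4, a red cell relative of it, are adjacent genes on chromosome 9. Both were higher with PRDM16 in the MLL-AF9 cotransduction. Icam1 was 13.9 and 15.7 FPKM with PRDM16 against 5.300 and 4.77 FPKM with PRDM16mut, a log2 fold change of 1.39 (SE 0.086, adjusted p = 9.54e-05). Icam4 was 5.801 and 6.799 FPKM with PRDM16 against 1.52 and 1.32 FPKM with PRDM16mut, a log2 fold change of 1.59 (SE 0.092, adjusted p = 7.78e-05). The erythroid marker list summed to 413.6 to 837 FPKM with PRDM16 against 59.97 to 120.6 FPKM with PRDM16mut there (5 of 5 tested higher, median 2.34 on the log2 scale), and its part in the Icam4 difference was not tested. Neither was called with E2A-HLF (11.6 and 11.3 against 12.4 and 12.3 FPKM for Icam1 and 3.01 and 2.49 against 2.18 and 3.03 FPKM for Icam4), and the effect on Icam1 differed between the cotransductions by 1.49 (SE 0.087, adjusted p = 1.08e-07) on the log2 scale. Icam2, another LFA-1 ligand, was lower with E2A-HLF at 41.5 and 39.5 against 49.8 and 52.6 FPKM, a log2 fold change of -0.33 (SE 0.05, adjusted p = 0.00322). In the stable cells it was lower at 23.99 and 24.1 against 26.7 and 27.7 FPKM, a log2 fold change of -0.17 (SE 0.032, adjusted p = 0.0467). This stable-cell call was lost when any 1 library was left out.

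Pecam1, a self-binding molecule of leukocytes and endothelium, was higher with PRDM16 in both cotransductions. Its values were 61.03 and 64.8 FPKM with PRDM16 against 32.00 and 32.6 FPKM with PRDM16mut in MLL-AF9 cells and 146 and 147 FPKM with PRDM16 against 85.3 and 87.96 FPKM with PRDM16mut in E2A-HLF cells. The log2 fold changes were 0.94 (SE 0.056, adjusted p = 8.25e-05) and 0.75 (SE 0.042, adjusted p = 6.3e-05), and no group overlapped its counterpart. The stable cells had 3.58 to 4.21 FPKM and no call. The endothelial marker list summed to 12.47 to 13.8 against 8.42 to 8.92 FPKM with MLL-AF9 (2 of 3 tested higher) and to 42.3 to 45.6 against 119 FPKM with E2A-HLF (1 of 1 lower). With MLL-AF9 the higher markers were Tie1, at a mean of 3.99 against 0.671 FPKM, and Tek, at 1.40 against 0.0284 FPKM, while Emcn was at 0 and Cdh5 at most 0.093 FPKM. The part of such cells in the Pecam1 differences was not tested.

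F11r, which encodes the junctional molecule JAM-A, went in opposite directions. It was 8.74 and 8.73 FPKM with PRDM16 against 4.32 and 4.398 FPKM with PRDM16mut in MLL-AF9 cells, higher by 0.86 (SE 0.057, adjusted p = 0.000118). E2A-HLF cells had 2.92 and 2.83 FPKM with PRDM16 against 11.4 and 11.5 FPKM with PRDM16mut, a log2 fold change of -1.69 (SE 0.053, adjusted p = 6.6e-06). Alcam, the ligand of CD6, was lower with E2A-HLF at 0.507 and 0.5404 FPKM with PRDM16 against 2.48 and 2.52 FPKM with PRDM16mut, a log2 fold change of -1.20 (SE 0.065, adjusted p = 5.3e-05), and there only the mutant libraries took it past the filter. With MLL-AF9 Alcam stood at 5.86 and 5.67 against 6.46 and 6.805 FPKM and just missed the threshold (adjusted p = 0.0502). It was called lower under 5 alternatives with all libraries (adjusted p from 0.0237 to 0.0498) and without PRDM16 library 1 (0.0363).

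Cd47, the widely expressed signal that restrains phagocytosis through SIRP alpha, was the most abundant or second most abundant member by mean level in all 3 experiments. It was 113 and 101 FPKM with PRDM16 against 187 and 183 FPKM with PRDM16mut in MLL-AF9 cells, a log2 fold change of -0.79 (SE 0.066, adjusted p = 0.000282). With E2A-HLF the PRDM16 libraries were the higher ones, at 148 and 150.2 FPKM with PRDM16 against 109.7 and 116 FPKM with PRDM16mut and 0.40 (SE 0.048, adjusted p = 0.0013) on the log2 scale. Esam and Mcam, found mainly on endothelium and platelets or endothelium and stroma, stayed under 0.38 FPKM in all 12 libraries and were not tested.

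The 3 tetraspanins, membrane organisers that bind integrins laterally, were called in every comparison except for Cd151 in the stable cells. Cd9 was the most abundant member with MLL-AF9 and PRDM16. It stood at 269 and 268 FPKM with PRDM16 against 84.2 and 83.5 FPKM with PRDM16mut, a log2 fold change of 1.67 (SE 0.046, adjusted p = 8.3e-06). With E2A-HLF it was lower at 84.5 and 81.4 FPKM with PRDM16 against 95.2 and 105 FPKM with PRDM16mut, a log2 fold change of -0.27 (SE 0.06, adjusted p = 0.0147), which was not called without PRDM16 library 2 (adjusted p = 0.0645). In the stable cells it was 14.8 and 14.1 FPKM with PRDM16 against 10.98 and 11.6 FPKM with PRDM16mut, higher by 0.33 (SE 0.043, adjusted p = 0.0222), the largest rise among the members there.

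Cd81, a partner of alpha 4 integrins, had the opposite direction to Cd9 with MLL-AF9. It was 11.02 and 12.3 FPKM with PRDM16 against 51.1 and 51.1 FPKM with PRDM16mut, a log2 fold change of -2.04 (SE 0.069, adjusted p = 1.44e-05). It was also lower with E2A-HLF at 92.5 and 86.5 FPKM with PRDM16 against 119 and 119.6 FPKM with PRDM16mut, a log2 fold change of -0.41 (SE 0.049, adjusted p = 0.00121), and higher in stable cells at 80.8 and 81.4 FPKM with PRDM16 against 71.98 and 72.2 FPKM with PRDM16mut, a log2 fold change of 0.17 (SE 0.027, adjusted p = 0.034). Cd151, which binds laminin-receptor integrins such as those with alpha 6, was 27.1 and 27.6 against 15.04 and 14.4 FPKM with MLL-AF9, 0.85 (SE 0.055, adjusted p = 0.000112) on the log2 scale. In E2A-HLF cells it was 19.04 and 18.2 against 29.6 and 31.9 FPKM, -0.69 (SE 0.055, adjusted p = 0.000232) on the log2 scale. Cd151 thus changed in the direction of Itga6 in both cotransductions.

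**Figure D4:**
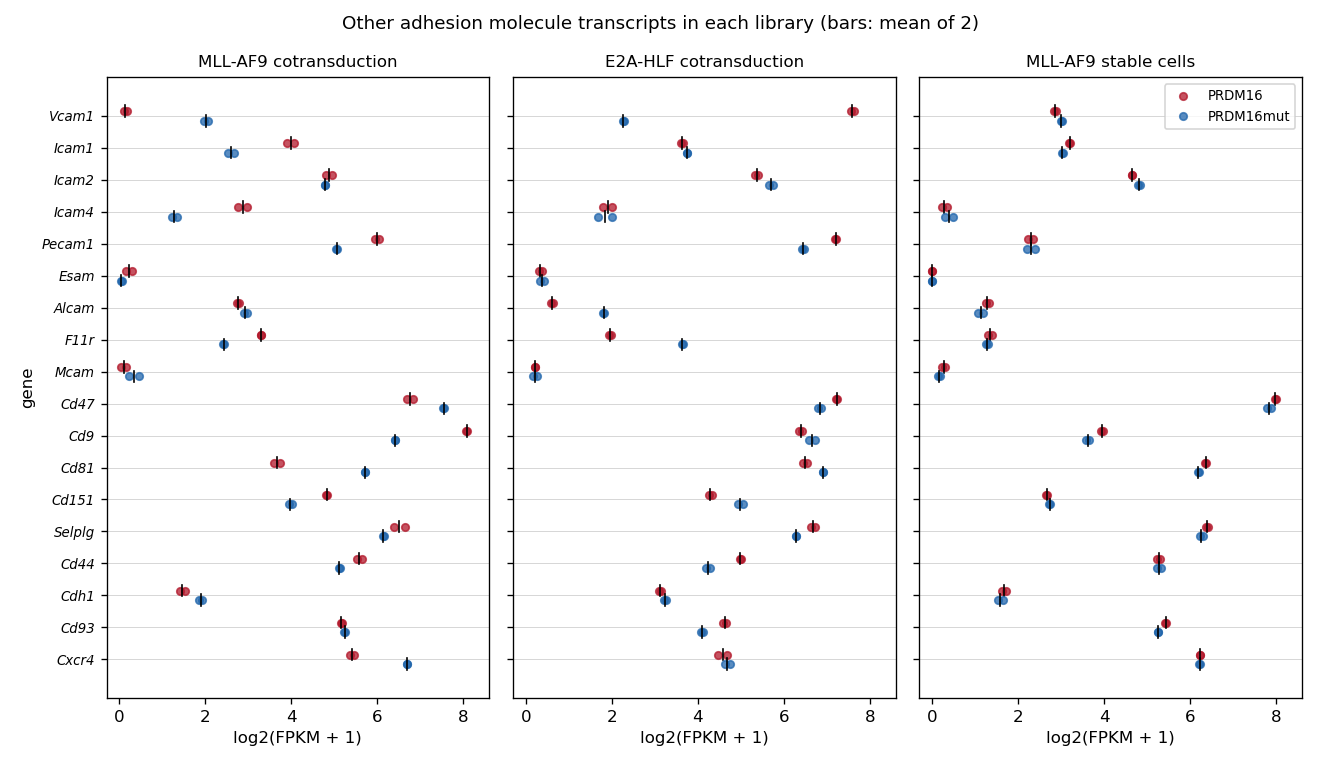
Log2(FPKM + 1) of the 18 members that are not integrin chains on the horizontal axis, 1 point per library and a bar at the mean of the 2 libraries of a group, for the 3 experiments. Vcam1 spans from under 0.13 FPKM with MLL-AF9 and PRDM16 to 188 and 197 FPKM with E2A-HLF and PRDM16, and Cd9 reaches 269 FPKM with MLL-AF9 and PRDM16.

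Of the 5 remaining surface molecules, 2 were higher and 2 lower with MLL-AF9, 3 were higher with E2A-HLF and 1 was higher in the stable cells. Selplg, the ligand of P-selectin that lets leukocytes roll on vessel walls, was abundant in all 12 libraries (68.6 to 104.4 FPKM). It was 82.8 and 98.2 against 69.9 and 68.6 FPKM with MLL-AF9 and 104 and 98.4 against 77.1 and 76.9 FPKM with E2A-HLF, with log2 fold changes of 0.38 and 0.39. The first of these was lost without mutant library 1 or 2 (adjusted p = 0.0786 and 0.0944). Cd44, the hyaluronan receptor, was higher in both, at 49.2 and 44.8 FPKM with PRDM16 against 34.1 and 33.4 FPKM with PRDM16mut in MLL-AF9 cells and 30.6 and 30.9 FPKM with PRDM16 against 17.4 and 18.6 FPKM with PRDM16mut in E2A-HLF cells. Its log2 fold changes were 0.47 (SE 0.065, adjusted p = 0.0018) and 0.74 (SE 0.049, adjusted p = 0.00012).

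Cxcr4, the receptor for the marrow chemokine CXCL12, was lower with PRDM16 in the MLL-AF9 cotransduction. Its values were 42.9 and 40.1 FPKM with PRDM16 against 101 and 103 FPKM with PRDM16mut, a log2 fold change of -1.28 (SE 0.057, adjusted p = 3.3e-05). With E2A-HLF the libraries overlapped at 24.5 and 21.3 against 23.7 and 25.7 FPKM, and the effects differed between the cotransductions by -1.17 (SE 0.09, adjusted p = 9.88e-07). Cd93, a lectin-like molecule of myeloid cells and endothelium, was higher with E2A-HLF and in stable cells. Its values were 23.01 and 24.2 against 15.95 and 16.5 FPKM with E2A-HLF and 42.3 and 41.9 against 36.9 and 37.1 FPKM in stable cells. The log2 fold changes were 0.52 and 0.18, and the stable-cell call was lost when any 1 library was left out. Cdh1, E-cadherin and the ligand of alpha E beta 7, was lower with MLL-AF9 at 1.65 and 1.88 against 2.79 and 2.61 FPKM, a log2 fold change of -0.42, while its receptor chains Itgae and Itgb7 were higher.

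Several members had opposite directions in the 2 cotransductions. Of the 27 tested in both, 10 were called one way with MLL-AF9 and the other way with E2A-HLF, beside 22.6% of the 9992 genes tested in both tables. Itgal, Itgam, Itgb2, Vcam1 and Cd47 were lower with PRDM16 in the former and higher in the latter. The reverse held for Itga6, Itgb1, Cd9, Cd151 and F11r. Vcam1 passed the level filter with MLL-AF9 through the mutant libraries only, so its direction there was set by the filter. For 3 of the 10 a call was lost when a library was left out, that of Itga6 with MLL-AF9 and those of Itgb1 and Cd9 with E2A-HLF. Another 7 were called the same way, with Itga4, Itgax, Itgb7, Selplg, Cd44 and Pecam1 higher and Cd81 lower. In both cotransductions Itgax passed the filter through the PRDM16 libraries only, so its direction was set there too. The share of all genes called the same way was not computed, so the count shows nothing particular to these members. Among these 7, the call of Itgax with E2A-HLF was lost when any 1 library was left out. That of Selplg with MLL-AF9 was lost when either mutant library was left out. A test of the difference itself, as a contrast of the effects in 1 limma fit over all 12 libraries, could be made for the 25 members that passed the level filter in every table. It was called for 21 of the 25 (adjusted p under 0.05), beside 71.4% of all genes. The largest differences were those of Vcam1 at -7.21 (SE 0.07, adjusted p = 2.44e-13) and Itgal at -5.98 (SE 0.069, adjusted p = 5.67e-13), MLL-AF9 minus E2A-HLF. Itga4, Itgav, Selplg and Pecam1 were the 4 whose effects were not called different, and for Itga4 the difference was 0.20 (SE 0.11, adjusted p = 0.129).

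**Figure D5:**
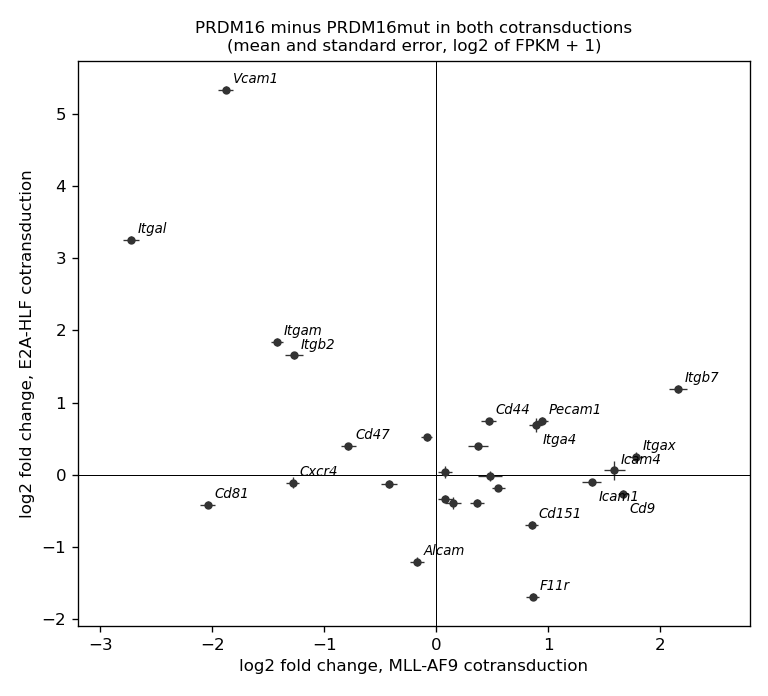
Log2 fold change (PRDM16 minus PRDM16mut, FPKM + 1) of the 27 members tested in both cotransductions, MLL-AF9 on the horizontal and E2A-HLF on the vertical axis, with standard errors as bars. Points in the upper left (Vcam1, Itgal, Itgam, Itgb2, Cd47) were lower with PRDM16 in one experiment and higher in the other, and Itgb7 lies at 2.16 and 1.19 in the upper right.

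The stable cells, which already carried MLL-AF9 when PRDM16 was added, had small effects on the same genes. The effect with MLL-AF9 differed between cotransduced and stable cells for 22 of the 25 members, beside 64% of all genes. The E2A-HLF effect differed from that in stable cells for 19 of 25, beside 37% of all genes. The starting cells and the drug selection also differed between these experiments, so that they cannot be told apart from the order in which the genes were introduced. The 5 calls in stable cells (Cd9, Itga6, Cd93 and Cd81 higher, Icam2 lower) were each lost whenever 1 of the 4 libraries was left out, and also when no filter on low values was used. In 3 members, Itga6, Cd9 and Cd81, a call was made in all 3 comparisons, and 16 members were called in 2, 9 in 1 and 7 in none. Of those 7, 6 were tested in no comparison. Counts of this kind were not made over all genes, so they show nothing particular to these members.

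Levels set across experiments come from tables that the authors made separately. With that limit, 23 of the 35 members stood at 1 FPKM or more in all 12 libraries. Selplg (68.6 to 104.4 FPKM), Itgb1 (56.1 to 90.7 FPKM) and Icam2 (23.99 to 52.6 FPKM) had the narrower ranges among the abundant members named here. Itgb7 ranged from 1.51 to 112 FPKM, Itgam from 2.70 to 119 FPKM and Pecam1 from 3.58 to 146.7 FPKM. The Itgb7 order of stable cells, E2A-HLF cells and MLL-AF9 cells held for both forms of PRDM16. For Pecam1 the order was stable cells, MLL-AF9 cells and E2A-HLF cells, again with both forms.

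Other genes of integrin activation and of the adhesion machinery gave mixed directions. The counts of this and the lists that follow stand beside called shares over all genes of 35.6% higher and 34% lower with MLL-AF9, 22.7% and 21.1% with E2A-HLF, and 4.2% and 2.16% in stable cells, and nothing particular to a list was tested. Of 36 tested genes for integrin activation and linkage to actin, 8 were higher and 13 lower with MLL-AF9, 9 of 33 higher and 6 lower with E2A-HLF, and 2 of 35 higher in stable cells. Rasgrp2, the exchange factor that activates RAP1 and through it integrins, was lower with MLL-AF9 (mean 6.67 against 48.3 FPKM, log2 fold change -2.68). Fyb, the adaptor ADAP of integrin activation, and the kinase gene Src were higher there (for Fyb mean 34.7 against 11.3 FPKM, log2 fold change 1.53, and for Src mean 6.12 against 0.335 FPKM, log2 fold change 2.41). Vcl, vinculin of adhesion sites, was lower with MLL-AF9 (mean 15.3 against 37.3 FPKM, log2 fold change -1.23) and higher with E2A-HLF (mean 18.1 against 12.2 FPKM, log2 fold change 0.53). Rap1b, the small GTPase upstream of integrin activation, was higher with E2A-HLF (mean 142 against 95.3 FPKM, log2 fold change 0.57) and in stable cells (mean 199.5 against 178 FPKM, log2 fold change 0.17). Of 10 other integrin chains, the platelet pair Itga2b and Itgb3 passed the filter in the cotransductions, and both were higher in each, with Itga2b at 40.4 against 10.9 FPKM in E2A-HLF cells.

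Of 14 tested matrix and counter-receptor ligands, 8 were higher and 5 lower with MLL-AF9, 6 of 13 higher and 7 lower with E2A-HLF, and 2 of 10 higher in stable cells. Fn1, the fibronectin that alpha 4 and alpha 5 integrins bind, was lower with MLL-AF9 (mean 0.1303 against 5.89 FPKM, log2 fold change -2.61), and Mfge8, a bridging ligand of alpha V integrins, was higher (mean 99.8 against 7.44 FPKM, log2 fold change 3.57). Thbs1, the thrombospondin that binds CD47, was higher with E2A-HLF (mean 60.2 against 16.04 FPKM, log2 fold change 1.84) and in stable cells (mean 277 against 232 FPKM, log2 fold change 0.25). Selectins and selectin ligand genes were 8 higher and 3 lower of 13 with MLL-AF9, 7 higher and 4 lower of 14 with E2A-HLF, and 0 of 11 by limma in stable cells, where 3 had an unadjusted p under 0.05. Selp, P-selectin, was higher with MLL-AF9 (mean 34.3 against 0.878 FPKM, log2 fold change 4.23) and lower with E2A-HLF (mean 6.899 against 16.9 FPKM, log2 fold change -1.18).

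Other tetraspanins were 8 higher and 5 lower of 15 with MLL-AF9, 6 and 5 of 12 with E2A-HLF, and 1 and 1 of 13 in stable cells. The leukocyte tetraspanin Cd37 was lower with MLL-AF9 (mean 11.4 against 119 FPKM, log2 fold change -3.27) and higher with E2A-HLF (mean 52.9 against 16.8 FPKM, log2 fold change 1.60). Junction and further immunoglobulin family genes were 10 higher and 5 lower of 18, 4 and 9 of 16, and 2 and 0 of 13 in the same order. Jam3, a relative of F11r, was lower with E2A-HLF (mean 4.84 against 16.04 FPKM, log2 fold change -1.54), and Epcam was higher with MLL-AF9 (mean 18.5 against 2.42 FPKM, log2 fold change 2.52). Metalloproteases that shed adhesion molecules, with their inhibitors, were 8 higher and 2 lower of 11, 4 and 2 of 8, and 1 and 0 of 9. Adam8, a protease that can cleave PSGL-1, was higher with E2A-HLF (mean 54.9 against 5.28 FPKM, log2 fold change 3.15).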

How the data were processed

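RNA from 12 samples of cultured mouse bone marrow cells was made into oligo(dT)-primed TruSeq v2 libraries, per the labels' protocols. The authors deposited 3 tables of FPKM values per gene symbol, each with 4 libraries. Bowtie2 2.0.0.7, TopHat2 2.0.3, Cuffdiff and build mm9 are named in the submitters' processing notes, and no source used here states whether counting used strand. Every value column was matched to a sample by its name (0 left over), and date-like symbols were left out of joins between tables.

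Genes with at least 1 FPKM in at least 2 of the 4 libraries of a table were tested with limma 3.58.1 (R 4.3.3) on log2(FPKM + 1), with a variance trend and Benjamini-Hochberg adjustment over the table. Fold changes on this scale understate those of low genes. Differences between experiments were contrasts of contrasts in 1 fit of all 12 libraries over 9475 genes. The procedure was tested on simulated data. Alternatives were another pseudocount, filter, scaling or moderation, the replicate block, and each library left out. Per-library values are given for members called in at least 2 comparisons, or called with a change of at least 1. They are also given for Itga5, Itgb5 and Cdh1, which were called in 1 comparison with a smaller change. Other genes are named from the pathway and marker lists, up to 4 of smallest p per list and comparison. The members and lists were chosen with earlier results of these data known. Relative depth came from the whole-number ratios of low FPKM values, where 65.5% to 74.3% of genes fitted, and FPKM summed to 570872 to 683269 per library.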

Additional observations from a re-analysis of the deposited data

Results flagged for a closer look

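For 14 pairs of effects, a member was called higher with PRDM16 in one experiment and lower in the other. The test of the difference between the effects was also called for each pair. It used the same libraries as those calls, so it adds no independent support for the opposite directions. Of 25 members tested, the pairs were 10 between the cotransductions, 1 between the MLL-AF9 experiments and 3 between E2A-HLF and stable cells. The shares over all 9475 genes were 21.2%, 1.71% and 1.72%. Vcam1 passed the level filter with MLL-AF9 through the mutant libraries only, so its direction there was set by the filter. Between the cotransductions, the effect with MLL-AF9 minus that with E2A-HLF was -7.21 (SE 0.07, adjusted p = 2.44e-13) for Vcam1 and -5.98 (SE 0.069, adjusted p = 5.67e-13) for Itgal on the log2 scale. It was -3.26 (SE 0.062, adjusted p = 2.13e-11) for Itgam, -2.92 (SE 0.084, adjusted p = 5.24e-10) for Itgb2 and -1.18 (SE 0.076, adjusted p = 2.42e-07) for Cd47. For the genes that went the other way it was 2.55 (SE 0.07, adjusted p = 3.69e-10) for F11r, 1.94 (SE 0.072, adjusted p = 3.55e-09) for Cd9, 1.55 (SE 0.067, adjusted p = 1.08e-08) for Cd151, 0.76 (SE 0.069, adjusted p = 3.52e-06) for Itga6 and 0.74 (SE 0.062, adjusted p = 1.84e-06) for Itgb1. Between the MLL-AF9 cotransduction and the stable cells, Cd81 differed by -2.21 (SE 0.072, adjusted p = 3.11e-09). Between E2A-HLF and stable cells, Itga6 differed by -0.58 (SE 0.069, adjusted p = 0.000103), Cd9 by -0.60 (SE 0.072, adjusted p = 0.000109) and Cd81 by -0.58 (SE 0.072, adjusted p = 0.000134). The calls of Cd81, Itga6 and Cd9 in stable cells were each lost when any 1 library was left out. In all, the difference was called for 21 members between the cotransductions, for 22 between the MLL-AF9 experiments and for 19 between E2A-HLF and stable cells, of 25 tested each time. Of these, 20, 20 and 15 kept the call under every alternative that gave a value.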

How the results depend on the processing

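No called value of any member changed sign under the alternatives. Of the 24 members called with MLL-AF9, 21 kept the call under every alternative that gave them a value, as did 18 of 21 with E2A-HLF and 0 of 5 in stable cells, and all losses in the cotransductions came from leaving out a library. Of the called differences between experiments, 20 of 21 between the cotransductions, 20 of 22 between the MLL-AF9 experiments and 15 of 19 between E2A-HLF and stable cells kept the call under every alternative. The others were Cdh1, then Alcam and Itga6, then Cd47, Icam1, Itgb1 and Itgb5, where Cd47, Itgb1 and Itgb5 lost it only when a library was left out. With MLL-AF9, calls were gained by Alcam (6 alternatives), Itgb5 (2), Icam2 (1, without PRDM16 library 1) and Cd93 (1, without PRDM16 library 2). In the stable cells, where 4 members were called higher, 1 lower and 673 genes in all, the counts were 0, 0 and 41 with no filter on low values, 1, 0 and 278 without a trend, 7, 2 and 1499 with robust moderation, and 2, 0 and 298 with the spread of all 12 libraries. Median ratio scaling gave 2 lower members there. Leaving out 1 library gave 0 higher, 0 lower and 65 to 139 genes. The cause was not tested, apart from the fewer libraries of the last setting. The fit with the replicate number as a block gave 3 higher and 0 lower members in stable cells, where Icam2 (adjusted p = 0.0548) and Itga6 (adjusted p = 0.0559) lost their calls, and 15 and 9 with MLL-AF9 and 12 and 9 with E2A-HLF, as without it. Deviations of libraries with the same number correlated at 0.067, 0.29 and 0.32 across genes in the 3 experiments, over 2 pairs each, so the numbers do not establish pairs.

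Signs turned only for values that were not called. In stable cells Itgam went from 0.01 to -0.0124 with quantile normalization and -0.0077 with median ratio scaling (-0.019 to 0.0345 when a library was left out), and Cxcr4 to -0.0145 and -0.0060 (-0.0033 to 0.0223). Leaving out a library gave -0.0387 to 0.0154 for Itga4, -0.0478 to 0.0313 for Cd44 and -0.0958 to 0.0894 for Pecam1 there, and with E2A-HLF -0.0887 to 0.0559 for Itga5, -0.032 to 0.1085 for Itgav and -0.1086 to 0.2348 for Icam4. The difference between the cotransductions for Selplg was 0.0386 with quantile normalization and 0.0229 with median ratio scaling (-0.1375 to 0.1055), and for Itgav -0.0303 to 0.1102. The E2A-HLF minus stable difference for Itga5 was -0.0053 with quantile normalization (-0.0444 to 0.1001). Read counts behind the FPKM values were not used here, so counting error cannot be given, and members under 1 FPKM are the least precise.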
